A study of Mus musculus with 6 samples.

Results

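Middle-tercile hepatocyte nuclei are the nuclei of fasted mouse liver whose zone score lay in the middle tercile of the hepatocyte nuclei of their own library, that is, in the middle one of 3 classes cut by rank (tied scores stay together, and the outer classes held 1626 pericentral and 1589 periportal nuclei). There were 1715 of them, out of 4930 nuclei taken as hepatocytes and 26467 nuclei past the quality filter. The 3 knockout libraries gave 268, 276 and 234 of these nuclei, and the 3 control libraries gave 359, 241 and 337. A nucleus counted as a hepatocyte when Apob, Cps1, Abcb11 and Mat1a together made up at least 0.3% of its UMIs (unique molecular identifiers, each a counted RNA molecule) and when the sinusoidal genes Stab2, Ptprb, Reln and Clec4f together had at most 3 UMIs. The zone score was the log2 ratio of the pericentral UMIs (Cyp2e1, Glul, Slc1a2, Gulo and Oat) to the periportal UMIs (Cyp2f2, Hsd17b13, Gls2 and Hal), with 1 added to each sum. The members were thus chosen by the UMIs of these genes within each library, and the values of these genes are given here as a description without a test.

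The study profiled single nuclei from the livers of 6 male mice, 1 library per mouse, with the Chromium 3′ chemistry. Its title asks about a role of Plvap in stellate cells in hepatic fatty acid utilization. The 3 knockout mice lack Plvap in hepatic stellate cells, and the 3 control mice are their littermates. Per the labels, all 6 mice were 18 weeks old, were kept on chow and were fasted for 12 hours overnight. Both groups carry the same source designation, Plvaptm1.1Salm-Tg(Lrat-cre)1Rshw, and the same strain label, C57BL/6JBomTac. Lrat drives Cre in stellate cells, and whether Cre was present in the control mice is not stated in the labels. Hepatocytes are not the cells in which Plvap was deleted.

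Hepatocytes divide their work along the axis of the liver lobule. Cells near the portal vein carry most urea synthesis and gluconeogenesis, and cells around the central vein carry glutamine synthesis, bile acid synthesis and much of drug metabolism under Wnt signalling. Cells between the poles are known for peaks of a few genes of their own, among them Hamp, which encodes the iron hormone hepcidin, and Igfbp2, which encodes an insulin-like growth factor binding protein.

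Hnf4a, a transcription factor of hepatocyte identity outside the selection rule, had a UMI in 97.4% of the nuclei (median depth 10034 UMIs). For background, it had one in 2.96% of 17552 nuclei with over 3 sinusoidal UMIs and under 0.3% hepatocyte UMIs (median depth 4091 UMIs). Thinned to 1500 UMIs the shares were 52.7% of 1713 middle-tercile and 1.21% of 17072 sinusoidal nuclei. Alb, the albumin gene, had a UMI in 100% of the middle-tercile and in 79.7% of the sinusoidal nuclei, at 4985 CPM against 497 CPM (CPM being UMIs scaled to a common total), so its share of nuclei alone did not mark hepatocytes. The rule genes Apob (apolipoprotein B) and Cps1 (the entry enzyme of the urea cycle) had a UMI in 99.1% and 99.8%. Endothelial, stellate and macrophage markers were low. The limit on Stab2, Ptprb, Reln and Clec4f favoured this, and the nuclei compared are those outside the rule, so these levels are a description. The 12 endothelial markers summed to 111 to 192 CPM of all UMIs in the 6 middle terciles, against 5650 to 6375 CPM in the nuclei outside the hepatocyte rule. The 12 stellate markers summed to 33.2 to 57.1 CPM, against 3786 to 5191 CPM, and the 12 macrophage markers to 132 to 247 CPM, against 3745 to 6105 CPM. The separation was smaller for the 13 lymphocyte markers, which summed to 245 to 518 CPM against 644 to 1263 CPM (518 against 919 CPM in knockout 2), and no marker of any of these lists was at 0 in all 6 mice. The 10 cholangiocyte markers were higher in the middle terciles (1227 to 1706 CPM) in all 6 mice than outside the hepatocyte rule (622 to 1351 CPM), led by Sorbs2, which hepatocyte nuclei also contain. Mki67, a marker of dividing cells, had a UMI in 1.11% of the nuclei.

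The depth was close between groups. The medians were 10076.5, 10274.5 and 9408.5 UMIs per nucleus in the 3 knockouts, against 9032, 10158 and 11284 UMIs in the 3 controls, from libraries of 23153182 to 27199466 UMIs. Of the 1715 nuclei, 18 were called as doublets. Across the libraries 77 barcodes occurred more than once, and 9 of the 1715 middle-tercile nuclei had a barcode that was also a filtered nucleus of another library. Nuclei with 0.3% to 0.35% of their UMIs in the hepatocyte genes numbered 174, and 126 lay just outside, at 0.25% to 0.3%. Most of both groups came from knockout 2 (68 inside and 47 outside) and control 1 (73 inside and 50 outside). The hepatocyte rule took 17.5% ± 1.21 of the filtered nuclei in knockouts and 20.4% ± 6.24 in controls (SD, n = 3 each). An exact two-sided permutation test gave p = 0.6, and the smallest p that 3 mice against 3 allow is 0.1. Without control 3 the difference had the other sign, at 0.435 percentage points.

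**Figure D1:**
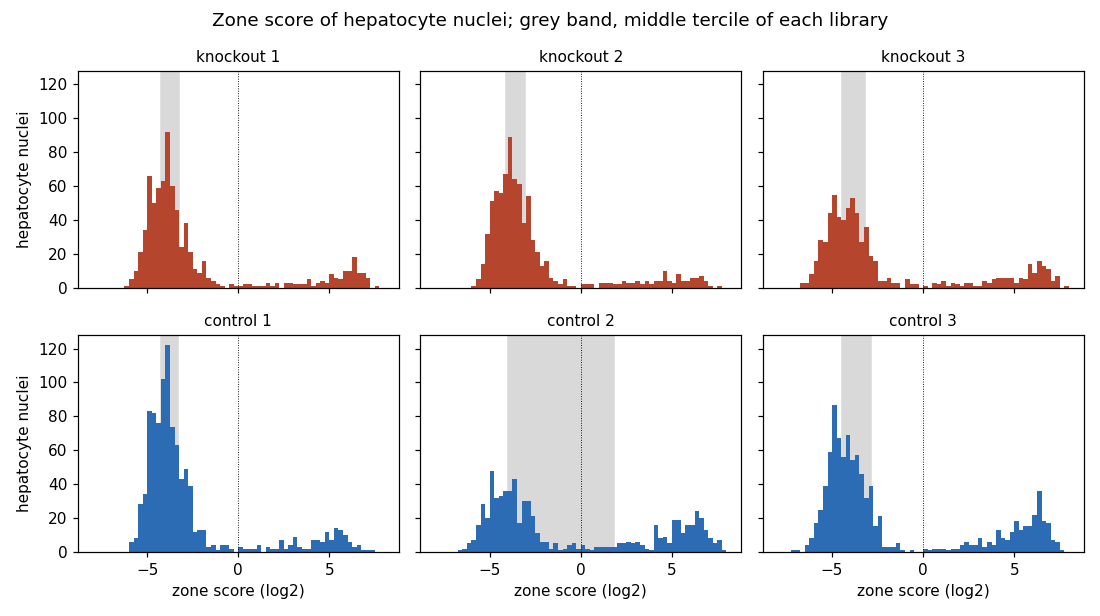
Zone score (log2, horizontal) of every hepatocyte nucleus, as a histogram of nuclei (vertical) for the 3 knockout libraries above and the 3 control libraries below, with the middle tercile of each library as a grey band. The band lies on the left, periportal mode in 5 libraries and reaches across 0 in control 2, where it runs from -4.0 to 1.81.

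The zone score had 2 modes, a large periportal one and a smaller pericentral one, with few nuclei between them. Only 263 of the 4930 hepatocyte nuclei had a score from -2 to 2. The middle tercile was therefore placed by rank inside the periportal mode. Its limits were -4.25 to -3.25 in knockout 1, -4.09 to -3.09 in knockout 2 and -4.46 to -3.17 in knockout 3. In the controls the limits were -4.25 to -3.32, -4.0 to 1.81 and -4.46 to -2.87. Control 2 stood apart: 47 of its 241 middle-tercile nuclei (19.5%) had a score from -2 to 2, and in the other 5 libraries every middle-tercile nucleus scored below -2. Of all hepatocyte nuclei, 14.7%, 11.2% and 19.4% scored above 2 in the 3 knockouts, against 12.2%, 32.7% and 25.3% in the 3 controls. The median middle-tercile nucleus held 16 to 25 periportal rule UMIs and 0 to 2 pericentral rule UMIs. By their rule genes these nuclei were periportal in 5 of the 6 libraries, so the name midzonal went against the data, and they are called middle-tercile nuclei throughout.

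The limits cut a continuous range. Of the 1715 nuclei, 739 lay within 0.25 log2 units of a limit. With 1 pair of limits for all libraries (-4.25 and -3.0), 1504 of them stayed in the middle. With the score computed on nuclei thinned to 1500 UMIs, 1070 of the 1713 nuclei deep enough to be thinned stayed there.

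Zonation genes outside the score gave the same placement. They were read in the same nuclei that the score divided, so the terciles are described and not tested. The 9 pericentral markers (Cyp1a2, Cyp2c37, Cyp2c50, Cyp2a5, Cyp7a1, Lgr5, Axin2, Tbx3 and Rgn) summed to 19.7, 20.2 and 20.2 CPM in the middle terciles of knockouts 1, 2 and 3 and to 15.8, 61.5 and 19.1 CPM in those of controls 1, 2 and 3. In the pericentral terciles of the same mice they summed to 1011, 609 and 1213 CPM in knockouts and 780, 1005 and 1235 CPM in controls. Control 2 alone had a raised sum in its middle tercile, which is also the library whose band crossed 0. One further marker of that list was left out of the sum after its values were seen. Lgr5, a Wnt target of the cells next to the central vein, was at 0 to 0.8 CPM in the middle terciles and at 127 to 162 CPM in the pericentral ones.

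The 10 periportal markers (Pck1, Sds, Ass1, Arg1, Otc, Cdh1, Igf1, Pigr, Hsd17b6 and Etnppl) summed to 7827, 7114 and 10429 CPM in the middle terciles of knockouts 1, 2 and 3 and to 6879, 9909 and 9630 CPM in those of controls 1, 2 and 3. The periportal terciles held 7859, 7248 and 10569 CPM in knockouts and 6939, 10650 and 10020 CPM in controls, and the pericentral terciles 4475 to 5510 CPM over all 6 mice. The middle tercile thus lay 1.22% to 12% of the way between the periportal and the pericentral tercile for these genes. Sds, serine dehydratase, was near its periportal level, at 737, 830 and 1639 CPM in knockout middle terciles and 823, 1568 and 897 CPM in control ones. Its periportal terciles held 731, 802 and 1636 CPM in knockouts and 784, 1856 and 908 CPM in controls. The middle tercile was thus slightly above the periportal one in the 3 knockouts and control 1, and below it in controls 2 and 3.

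**Figure D2:**
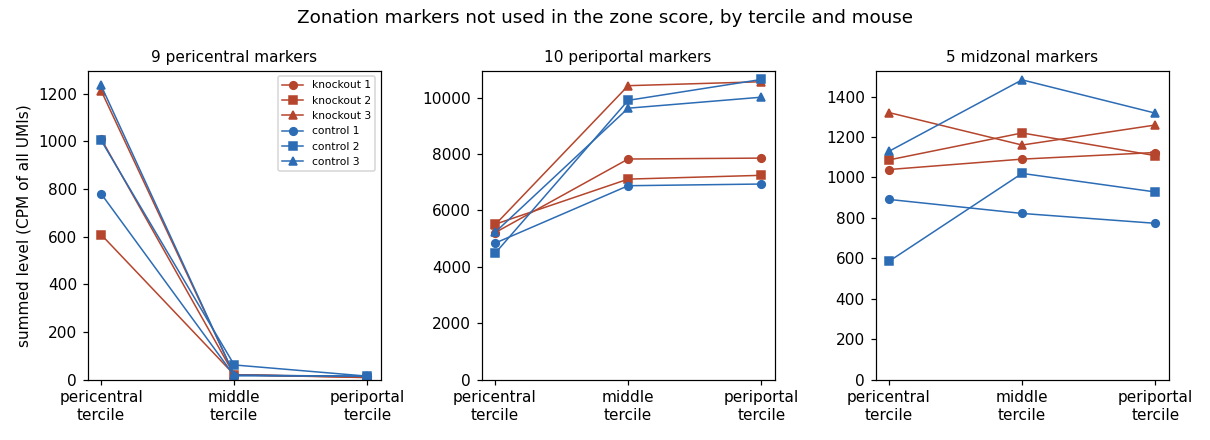
Summed CPM of 9 pericentral, 10 periportal and 5 midzonal markers outside the score (vertical) in the pericentral, middle and periportal tercile (horizontal), 1 line per mouse. The middle tercile sits beside the periportal tercile for pericentral and periportal markers, and the midzonal markers show no common peak in the middle tercile.

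Genes with their highest or lowest level in the middle tercile were few and shallow. Of 6648 genes with enough counts, 1 to 7 per mouse differed over 2-fold between the middle and the periportal tercile, and 68 to 352 between the middle and the pericentral tercile. The middle tercile was the highest of the 3 in all 6 mice for 44 genes (0.662%) and the lowest for 23 genes (0.346%). The pericentral tercile was the highest for 597 genes (8.98%) and the periportal tercile for 35 genes (0.526%). The leading genes of the middle tercile were Phlda1, a pleckstrin homology domain gene, with a mean log2 ratio of 0.28 ± 0.206 over the higher outer tercile, Hspa4l, a heat shock protein gene, with 0.26 ± 0.211, and Agap2 with 0.25 ± 0.0752 (SD over 6 mice). Gjb2, the gap junction protein connexin 26, was lower in this ranking, with 0.19 ± 0.128. The lowest in the middle were Vti1b, a gene of vesicle fusion, at -0.23 ± 0.16, and Nceh1, a cholesterol ester hydrolase, at -0.20 ± 0.153.

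Of the 5 midzonal markers, Hamp, Hamp2, Igfbp2, Cyp8b1 and Mup3, none peaked in the middle tercile in all 6 mice. Hamp was at 61.1, 167 and 81.5 CPM in the middle terciles of knockouts 1, 2 and 3 and at 120, 61.1 and 95.9 CPM in those of controls 1, 2 and 3, which was below the pericentral tercile in 5 of the mice. The 263 nuclei with a score from -2 to 2, a class chosen after the data were seen, differed in this. They numbered 44, 53 and 38 in the knockouts and 49, 51 and 28 in the controls. Hamp was at 147, 384 and 266 CPM in these nuclei of the knockouts and at 575, 148 and 330 CPM in those of the controls. Its mean of 308 CPM over the 6 mice stood beside 145 CPM in nuclei scoring above 2 and 89.0 CPM in nuclei scoring below -2, and it was the highest of the 3 classes in 6 of 6 mice.

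Igfbp2 was likewise the highest of the 3 classes there in 6 of 6 mice, with a mean of 540 CPM in nuclei with a score from -2 to 2, 166 CPM above 2 and 380 CPM below -2. Mup3 was the highest there in 4 of 6 mice, Cyp8b1, the sterol hydroxylase of cholic acid synthesis, in 1 of 6, and Hamp2 in 1 of 6. These nuclei were chosen for a score between the 2 modes, so intermediate levels of zonated genes were favoured in advance and are a description. Cyp7a1, the rate-limiting enzyme of bile acid synthesis, averaged 135 CPM there, against 375 CPM above 2 and 3.85 CPM below -2. Sds averaged 501, 15.5 and 1112 CPM in the same order. Arg1, a periportal marker, stayed nearer its periportal level, at 1202, 271 and 1343 CPM. Doublet calls made up 3.04% of these nuclei and 0.73% of all hepatocyte nuclei, and their part in the levels was not tested.

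Before the genotypes are compared, 2 libraries that stood apart from the other 4 need describing. Over the 6648 genes, the middle terciles of knockout 2 and control 1 differed over 2-fold in 120 genes from each other and in 414 to 976 genes from the other 4 mice, which differed among themselves in 114 to 251 genes. Tdo2, the first enzyme of tryptophan breakdown, was at 2515, 590 and 3929 CPM in knockouts 1, 2 and 3 and at 709, 3796 and 4166 CPM in controls 1, 2 and 3 (CPM here and below on TMM-scaled totals). Igfbp1, which insulin represses and which was picked here with its values in view, was at 376, 85.2 and 602 CPM in knockouts and at 10.6, 569 and 1126 CPM in controls. Cps1, a rule gene and so a description only, was at 7846, 2586 and 11261 CPM in knockouts and at 1671, 11270 and 15080 CPM in controls. The median share of the 4 hepatocyte rule genes was 0.558% in knockout 2 and 0.589% in control 1, against 1.23% to 1.92% in the others. By the counts over the 6648 genes, which hold no rule gene, the split ran across the genotypes, with 1 mouse of each set apart. The labels give the same fast for all 6 mice.

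Plvap (ENSMUSG00000034845, chromosome 8, 71497765 to 71511752, mm10) encodes the diaphragm protein of caveolae and endothelial fenestrae. Middle-tercile nuclei held 2, 2 and 1 Plvap UMIs in knockouts 1, 2 and 3 and 4, 10 and 8 in controls 1, 2 and 3, of 2429452 to 3973988 UMIs per mouse. It was too low to pass the count filter and was not tested. Nuclei outside the hepatocyte rule held 55.5, 40.6 and 31.7 CPM in knockouts and 56.2, 51.8 and 59.1 CPM in controls. RNA from other cells reaches nuclei in droplets, and its part in the hepatocyte UMIs was not tested. A 3′ tag need not lie in the deleted part, so these counts check neither the deletion nor the labels.

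The comparison of knockout with control nuclei asked whether hepatocytes differ when stellate cells lack Plvap. UMIs were summed per mouse and 11384 genes were tested. No gene passed edgeR's quasi-likelihood test at an adjusted p of 0.05 (0 of 11384, 0%). At an unadjusted p under 0.05 there were 334 genes (2.93%), of which 146 (1.28%) had higher and 188 (1.65%) lower levels in knockouts. DESeq2, the alternative test, called 7 genes (0.0615%), 3 with higher levels, among them Srgap3 and Abcd2, and 4 with lower ones, Cd36, Orm2, Lipg and Serpine2. The knockout values all lay above the control values for 431 genes (3.79%) and all below for 380 (3.34%). The median log2 fold change of all tested genes was -0.00, and 5704 of them (50.1%) were below 0. The outer terciles of the same mice likewise had 0 genes past edgeR's threshold, of 11253 tested in the pericentral and 11396 in the periportal tercile. In simulated data the test recovered 24.0% of genes changed by a log2 of 1 and 92.8% of those changed by a log2 of 2. The simulation had 3 mice per group and 1 dispersion (spread between mice beyond counting noise) for all genes, 0.0708. It had no split like that of knockout 2 and control 1. The shares hold for that setting and do not say what share the test recovers in the real counts.

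By the naming rule 10 genes were taken in each direction, all without overlap between the groups. Cd36, the fatty acid translocase, was at 14.1, 4.71 and 11.8 CPM in knockouts 1, 2 and 3 and at 42.1, 34.0 and 48.0 CPM in controls 1, 2 and 3. All 3 knockouts lay below all 3 controls, and the log2 fold change was -2.04 (SE 0.361, edgeR adjusted p 1.0, DESeq2 adjusted p 0.00221). Cd36 is more abundant in other liver cells: outside the hepatocyte rule it averaged 235 CPM in knockouts and 187 CPM in controls, so the order of the groups there was the other way. Plin4, which coats lipid droplets, was at 7.05, 7.54 and 15.6 CPM in knockouts and at 17.9, 32.4 and 52.5 CPM in controls, without overlap, with a log2 fold change of -1.79 (SE 0.466, edgeR adjusted p 1.0, DESeq2 adjusted p 0.174). Lipg, an endothelial-type lipase, averaged 25.0 ± 2.98 CPM in knockouts and 66.6 ± 18.8 CPM in controls (SD, n = 3 each), with a log2 fold change of -1.41 (SE 0.252, edgeR adjusted p 1.0, DESeq2 adjusted p 0.0138). Mfsd2a, a transporter of lysophosphatidylcholine that is induced on fasting, was at 164, 88.9 and 141 CPM in knockouts and at 273, 314 and 274 CPM in controls, with a log2 fold change of -1.13 (SE 0.241, edgeR adjusted p 1.0, DESeq2 adjusted p 0.0757).

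Serpine2, a serine protease inhibitor, was at 4.59, 6.29 and 5.89 CPM in knockouts and at 10.3, 38.2 and 36.4 CPM in controls, with a log2 fold change of -2.32 (SE 0.511, edgeR adjusted p 1.0, DESeq2 adjusted p 0.0138). Orm2, an acute phase orosomucoid, was at 3.88, 1.57 and 1.68 CPM in knockouts and at 7.81, 39.8 and 18.9 CPM in controls, with a log2 fold change of -3.17 (SE 0.694, edgeR adjusted p 1.0, DESeq2 adjusted p 0.00307). Control 1 was the lowest control for both genes. Mup17 and Mup18, which encode pheromone-binding major urinary proteins, averaged 43.5 ± 4.25 and 8.90 ± 3.19 CPM in knockouts and 162 ± 90.2 and 36.5 ± 21.0 CPM in controls (SD, n = 3 each). Control 1 again lay nearest the knockouts, with 58.0 CPM of Mup17 and 12.8 CPM of Mup18. Outside the hepatocyte rule these genes also had lower means in knockouts, with 80.8 CPM in knockouts and 183 CPM in controls for Mup17, 17.7 and 42.4 CPM for Mup18, and 2.26 and 14.6 CPM for Orm2. The 2 Mup means were thus higher outside the rule than in middle-tercile nuclei, and the part of free RNA in these values was not tested. Orm2 and the Mup genes have near-identical copies between which the counting may have split reads, so their values are uncertain. Ripor2 and Neto2 had log2 fold changes of -0.78 and -0.75, each without overlap.

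Without knockout 2 and control 1, edgeR called 3 genes of 11234, all with lower levels in knockouts. These were Mup17 (log2 fold change -2.38, adjusted p 0.00937), Mup18 (-2.76, adjusted p 0.0172) and Serpine2 (-2.83, adjusted p 0.0207). Without control 1 alone it called 2 genes of 11605, and 682 of the 11605 had an unadjusted p under 0.05. Such a count also takes in genes that reach this p without a difference between the groups, so it is a description. Leaving out any other single mouse gave 0 called genes. Both fits leave out mice that were chosen after their values were known.

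Among genes with higher levels, Srgap3, a GTPase-activating protein of the Slit-Robo pathway, was at 18.3, 19.5 and 21.9 CPM in knockouts and at 4.47, 6.22 and 6.21 CPM in controls. The groups did not overlap, and the log2 fold change was 1.82 (SE 0.241, edgeR adjusted p 0.708, DESeq2 adjusted p 0.00221). Abcd2, a peroxisomal transporter of very long chain fatty acids, was at 34.2, 4.09 and 21.9 CPM in knockouts and at 0.837, 1.24 and 3.10 CPM in controls, with a log2 fold change of 3.46 (SE 0.847, edgeR adjusted p 1.0, DESeq2 adjusted p 0.00891). Knockout 2 lay close to the controls for Abcd2. Outside the hepatocyte rule Srgap3 averaged 26.7 CPM in knockouts and 20.8 CPM in controls, and Abcd2 31.7 and 35.1 CPM. Both were thus more abundant there than in middle-tercile nuclei, and the part of free RNA in their values was not tested. Further genes of this direction were Lnx1, Kcnt2, Cars, Fmn1, Slc9a7 and Cops7b, with log2 fold changes of 0.72 to 1.47. In both groups Kcnt2, Cars, Fmn1 and Slc9a7 had higher means outside the hepatocyte rule than in middle-tercile nuclei, and Lnx1 and Cops7b lower ones.

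**Figure D3:**
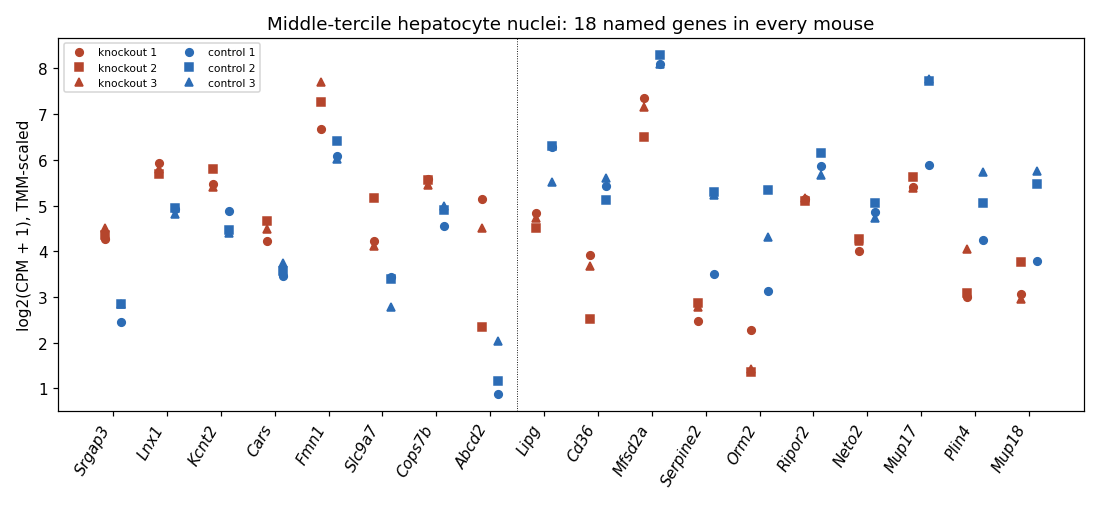
Level of 18 named genes in middle-tercile nuclei, as log2(CPM + 1) on TMM-scaled totals (vertical), with knockout mice in red to the left of control mice in blue for each gene. The 3 knockouts lie apart from the 3 controls for every gene, which the choice of genes required; the distance of control 1 from the other controls shows for Serpine2, Orm2, Mup17 and Mup18.

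Lists of liver genes were then described by how many tested members had lower or higher levels in knockouts, beside 50.1% below 0 among all genes. Members whose groups do not overlap are counted beside 3.34% of all genes with knockouts lower and 3.79% with knockouts higher. No member of any list passed edgeR's threshold. Targets of the fasting-activated receptor PPARA were lower for 24 of 28 members, with a median log2 fold change of -0.28, and 2 of the 28 members, Mfsd2a and Cidec, did not overlap, beside 3.34% of all genes. Cidec, a lipid droplet fusion protein, was at 76.9, 88.9 and 72.0 CPM in knockouts and at 129, 90.4 and 150 CPM in controls. Among the most abundant targets, Cyp4a14, a fatty acid omega-hydroxylase, was at 2639, 1272 and 2819 CPM in knockouts and at 2031, 2707 and 4997 CPM in controls. The groups overlapped, and the log2 fold change was -0.53 (SE 0.43). The median of this list was -0.26 without knockout 2 and control 1, and -0.23 to -0.40 with any 1 mouse left out.

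Lipid droplet and lipolysis genes were lower for 15 of 19 members, with a median of -0.21, and Plin4, Plin5 and Cidec did not overlap. Their most abundant members were G0s2, an inhibitor of fat breakdown, and Mgll, the monoacylglycerol lipase. G0s2 was at 245, 569 and 295 CPM in knockouts and at 1593, 331 and 117 CPM in controls, so that control 1 alone was high. Fatty acid oxidation genes were lower for 18 of 31 members, with a median of -0.11. Slc22a5, the carnitine transporter, averaged 64.9 ± 19.7 CPM in knockouts and 110 ± 19.5 CPM in controls (SD, n = 3 each) without overlap, whereas Acsl1, an enzyme of fatty acid activation, overlapped. Etfb, a subunit of the electron transfer flavoprotein, went the other way, with a log2 fold change of 0.34 (SE 0.181) and no overlap. The ketone synthesis list had 4 of 8 members lower and a median of -0.03, which was 0.18 without knockout 2 and control 1.

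Gluconeogenesis and amino acid genes were lower for 27 of 34 members, with a median of -0.28. With 1 mouse left out the median ranged from -0.62 (without control 1) to -0.0450 (without control 3). Pcx, pyruvate carboxylase, was at 418, 368 and 488 CPM in knockouts and at 675, 586 and 532 CPM in controls, and it was the 1 member without overlap. The mean deviation of the list from the 6-mouse mean was -0.10, -0.54 and 0.26 in knockouts 1, 2 and 3 and -0.64, 0.52 and 0.50 in controls 1, 2 and 3, on the log2 scale. The lowest mouse was a control and the next lowest a knockout, the same 2 that stood apart. Lipogenesis and glycolysis genes ran the other way in these 2 mice, at -0.16, 0.58 and -0.38 in knockouts and 0.48, -0.18 and -0.35 in controls, and were lower for 12 of 24 members, with a median of -0.34 to 0.28 with 1 mouse left out. Acaca, the first enzyme of fatty acid synthesis, had a log2 fold change of 0.54 (SE 0.238), and Pltp, a phospholipid transfer protein, one of -0.88 (SE 0.335) without overlap.

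**Figure D4:**
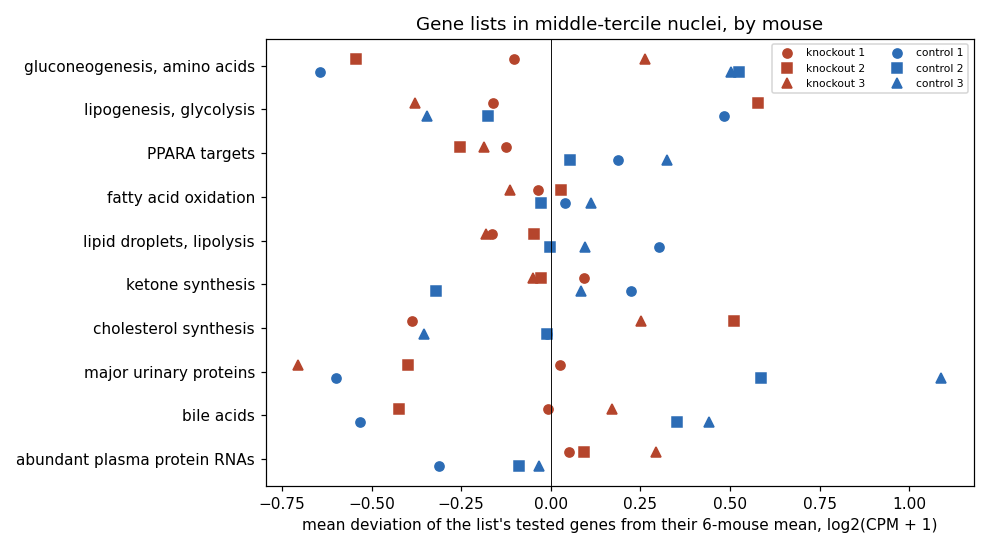
Mean deviation of the tested genes of 10 lists from their 6-mouse mean, in log2(CPM + 1) (horizontal), for each list (rows), with knockouts in red above controls in blue. The knockout 2 and control 1 symbols lie together for gluconeogenesis and lipogenesis. The 3 knockouts lie below the 3 controls for PPARA targets and for lipid droplet genes, the latter narrowly (knockout 2 at -0.0480, control 2 at -0.00308). They lie above the controls for abundant plasma protein RNAs. The lists were not tested.

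Cholesterol synthesis genes were higher for 22 of 25 members, with a median of 0.25 and no member without overlap. With 1 mouse left out the median ranged from 0.0672 (without knockout 2) to 0.44 (without knockout 1), and knockout 1 had the lowest mean deviation from the average of the 6 mice, at -0.39 on the log2 scale. Sc5d and Msmo1, enzymes of the late steps, had log2 fold changes of 0.54 (SE 0.247) and 0.57 (SE 0.269). Interferon-response genes were higher for 14 of 16 members, with a median of 0.19, and 2 members did not overlap. The median was 0.0552 with thinned nuclei and 0.14 (without control 3) to 0.35 (without control 1) with 1 mouse left out. The mean deviation of the list was 0.11, 0.25 and 0.0553 in knockouts and 0.13, -0.23 and -0.32 in controls, so the groups overlapped. Irf7, a member without overlap and a transcription factor of that response, was at 5.29, 8.80 and 10.9 CPM in knockouts and at 4.74, 4.98 and 2.54 CPM in controls. Genes of bile acid synthesis and transport were lower for 13 of 20 members, with a median of -0.17 that turned positive without knockout 2 (0.0560) or control 3 (0.0468). Abcb4, the phospholipid exporter of the bile canaliculus, had a log2 fold change of -0.68 (SE 0.328). Lipoprotein genes were lower for 13 of 26 members, with a median of 0.01. Acute phase genes were lower for 13 of 23 members, with a median of -0.07, which was -0.30 (without knockout 3) to 0.14 (without control 2) with 1 mouse left out.

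Major urinary protein genes were lower for 13 of 14 members, with a median of -0.59, which was -0.99 without knockout 2 and control 1, and -0.85 (without control 1) to -0.31 (without control 3) with 1 mouse left out. Mup20 averaged 618 ± 115 CPM in knockouts and 990 ± 285 CPM in controls (SD, n = 3 each) without overlap. A list of abundant plasma protein RNAs ran the other way. Of that list, 16 of 20 members were higher, with a median of 0.23. Of the 20 members, 6 lay wholly above the controls, beside 3.79% of all genes, among them Alb, Ttr, Ahsg and Serpina1e. Another 1 lay wholly below the controls, beside 3.34% of all genes. Alb was at 6153, 5343 and 7158 CPM in knockouts and at 3325, 4824 and 4255 CPM in controls, and Serpina1e, an alpha-1-antitrypsin gene with close copies, was at 663, 1419 and 851 CPM in knockouts and at 327, 487 and 491 CPM in controls. The hepatocyte identity list, which shares Alb, Ttr and Ahsg with it, was higher for 11 of 15 members, with a median of 0.24. The part of free RNA in these levels was not tested.

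The last comparison asked whether the knockout effect in the middle tercile differed from that in the outer terciles of the same mice. It was fitted over 18 sums with the mouse as a block, and 12349 genes were tested. No gene passed the threshold for the middle tercile against the mean of both outer terciles (0 of 12349, 0%), with 454 genes (3.68%) at an unadjusted p under 0.05. Against the pericentral tercile alone there were 0 called and 675 (5.47%) at an unadjusted p under 0.05, and against the periportal tercile 0 and 379 (3.07%). DESeq2 also called 0 genes in each of the 3 contrasts. The leading gene against both outer terciles was the mitochondrial mt-Nd4, a subunit of respiratory complex I, with a difference of log2 fold changes of -0.74 (SE 0.14, edgeR adjusted p 0.267). Against the pericentral tercile it was Ly6e, a membrane protein of the Ly6 family, with -1.28 (SE 0.248, edgeR adjusted p 0.196).

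The mitochondrial genes as a list had a median log2 fold change of -0.22 in the middle tercile, 0.28 in the pericentral and 0.21 in the periportal tercile. The mitochondrial share of UMIs overlapped in the middle tercile, at 0.200% to 0.236% in knockouts and 0.207% to 0.226% in controls. In the periportal tercile it was 0.193% to 0.213% in knockouts and 0.145% to 0.189% in controls, without overlap. In the pericentral tercile it was 0.258% to 0.347% in knockouts and 0.226% to 0.269% in controls, with overlap. A few nuclei carried part of the middle-tercile counts. Middle-tercile nuclei with over 1% mitochondrial UMIs numbered 3, 2 and 3 in knockouts and 6, 8 and 6 in controls, and held 4.80%, 3.20% and 4.93% of the mitochondrial UMIs in knockouts, against 14.1%, 13.3% and 6.62% in controls. Their part in the difference was not tested.

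The named genes had fold changes of the same sign in all 3 terciles. Cd36 had a log2 fold change of -2.04 in the middle and -2.30 in the periportal tercile, against -0.61 in the pericentral tercile. The difference between the middle and the pericentral tercile was -1.50 (SE 0.473, edgeR adjusted p 0.718). Plin4 had -1.79 in the middle and -1.47 in the periportal tercile against -0.18 in the pericentral tercile, with a difference of -1.49 (SE 0.392, edgeR adjusted p 0.509). Neither difference passed. Srgap3 had log2 fold changes of 1.82 in the middle, 1.97 in the periportal and 1.06 in the pericentral tercile. The terciles come from the same mice, so agreement between them is no separate support.

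**Figure D5:**
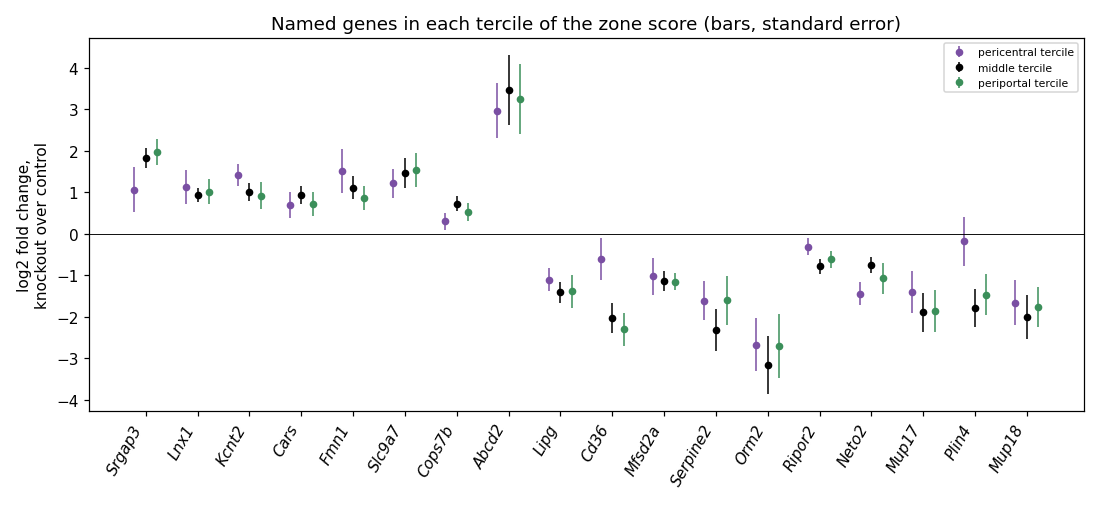
Log2 fold change of knockout over control (vertical) for the same 18 named genes in the pericentral (purple), middle (black) and periportal (green) tercile, with bars of 1 standard error. All have 1 sign in the 3 terciles, and the pericentral values of Cd36 and Plin4, at -0.61 and -0.18, lie nearer 0 than those of the other terciles.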

How the data were processed

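Nuclei were captured with the 10x Chromium 3′ chemistry v3.1, per the labels. The deposited matrices hold raw UMI counts per gene and barcode for 32285 features, per the file headers. Cell Ranger 7.0.1 and mm10 are named in the submitters' processing notes, and version 7.1.0 in the file headers. The use of introns or strand in counting was not stated, so overlapping and antisense genes cannot be told apart.

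Groups came from the genotype label. Replicate numbers follow accession order and pair no mice. No label says which mice share a litter. For knockout against control, p-values measure the spread between mice. For the difference between terciles, they measure the spread left after the level of each mouse is fitted. Of 27297 barcodes, 26467 had at least 500 genes, 1000 UMIs and a mitochondrial share under 5%. Doublets were called with scrublet in scanpy 1.11.5 (expected rate 0.06) and kept in the main result. UMIs were summed per mouse and tested in edgeR 4.0.16 (TMM, filterByExpr, robust quasi-likelihood, Benjamini-Hochberg over all tested genes, threshold 0.05, R 4.3.3), knockout over control; DESeq2 1.42.0 was an alternative. The difference between terciles was fitted with mouse, tercile and tercile by genotype. Exact permutation tests compared shares. The scripts were tested on simulated data with 200 changed genes. Positions are from GENCODE M21.

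The members and gene lists were chosen with earlier results of these data known. Of 570 listed genes, 1 was missing from the features. Named genes were up to 10 per direction, by unadjusted p where none passed, without overlap between groups and at 10 CPM or more on average; of each list described, the 2 of highest mean and the 2 of smallest p were taken; of genes highest or lowest in the middle tercile, those with at least 20 CPM, by mean ratio. Some genes that these rules took are left out of the text and figures. Fewer nuclei of a kind and less RNA per nucleus cannot be told apart in sums. Alternatives were other scalings, no count filter, DESeq2, no doublets, other score limits, thinning to 1500 UMIs, a hepatocyte share of 0.6% and leaving out mice.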

Additional observations from a re-analysis of the deposited data

How the results depend on the processing

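Counts of genes that passed depended on a few settings. For knockout against control, where edgeR called 0 genes, 7 (3 higher, 4 lower) passed in DESeq2, 5 (2 higher, 3 lower) with no filter on low counts, 3 (all lower) without knockout 2 and control 1, and 0 to 2 (0 higher, 0 to 2 lower) with any 1 mouse left out. For the middle tercile against the pericentral tercile, where 0 passed, the counts were 36 with no filter, 3 with 1 pair of score limits for all libraries, 1 with thinned nuclei, 13 without knockout 2 and control 1, and 0 to 55 with 1 mouse left out (55 without control 1). Against both outer terciles 2 passed with no filter, and against the periportal tercile 2 with no filter and 3 in nuclei with a score from -2 to 2, a setting chosen after seeing the data; with 1 mouse left out both were 0. Among named genes, those that passed with no filter included Srgap3, Lipg and Cd36, and Serpine2 and Mup17 passed without control 1. Ripor2 changed sign, to 0.19, with a score from -2 to 2. Their causes were not tested.

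List medians moved by more than the spread between mice in these settings. The hepatocyte identity median (0.24) was 0.305 with a narrower middle (score quantiles 0.4 to 0.6), 0.17 with thinned nuclei, 0.18 with a 0.6% hepatocyte share, 0.36 without knockout 2 and control 1, 0.17 with a score from -2 to 2 and 0.0198 to 0.453 with 1 mouse left out. The fatty acid oxidation median (-0.11) was -0.20 with thinned nuclei, -0.0305 without knockout 2 and control 1, and -0.17 to -0.0238 with 1 mouse left out. The lipid droplet median (-0.21) was -0.0859 with a 0.6% share, -0.0611 with a score from -2 to 2, and -0.44 to -0.11 with 1 mouse left out. The mitochondrial median (-0.22) was 0.0805 with the score on thinned nuclei and 0.45 with a score from -2 to 2. The ketone median (-0.03) was 0.18 without knockout 2 and control 1, and -0.13 to 0.19 with 1 mouse left out. PPARA targets ranged from -0.40 to -0.23 and lipoprotein genes from -0.0325 to 0.15 with 1 mouse left out. The knockout minus control difference in hepatocyte share was -5.76 to 0.435 percentage points with 1 mouse left out. No paired analysis was possible because the replicate numbers follow accession order and mark no shared litter or batch. In simulated data, changes of a log2 of 1 were recovered for 24.0% of genes in the knockout comparison and for 56% in the difference between terciles. The dispersion was the same for all genes, at 0.0708 and at a value of 0.02 set by hand. No split like that of knockout 2 and control 1 was simulated, so these shares need not hold for the real counts.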
